A study of Mus musculus with 16 samples.

Results

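Peaks closed in liver metastases were accessible regions of pancreatic ductal adenocarcinoma (PDAC) cells that were open in pancreas tumors and lung metastases and at least 3-fold lower in liver metastases. They were chosen on the measured values themselves: the mean normalized count of the 6 lung libraries and that of the 6 pancreas libraries were each at least 40 and each at least 3 times the mean of the 4 liver libraries, and the lung and pancreas means lay within 2-fold of each other. In all, 6007 of 136630 nuclear peaks (4.40%) met these criteria and are called liver-closed peaks here. The name stands for the difference between organs, since their liver means had a median of 24.3 and reached 588. The difference between the liver and the other organs is therefore a description of how they were chosen, and no test is attached to it.

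The study used ATAC-seq, in which the transposase Tn5 cuts accessible DNA, on mKate2-positive tumor cells sorted from 16 mice. The cells came from KC-shSmad4 tumor lines, in which Ptf1a-Cre switched on an mKate2 reporter in the pancreas and a doxycycline-inducible shRNA, inserted at the Col1a1 locus and linked to GFP, depleted Smad4. The lines were injected into the pancreas, the spleen (for liver metastases, with the spleen then removed) or the tail vein (for lung metastases) of female Foxn1nu mice 6 to 8 weeks old, which lack T cells, and all hosts received doxycycline. In the Smad4 off groups (Panc_OFF, Liv_OFF and Lung_OFF) the drug was continued, and in the Smad4 on groups (Panc_ON, Liv_ON and Lung_ON) it was withdrawn after 4, 5 or 6 weeks in the pancreas, liver or lungs, and the cells were taken 14 days later. Each pancreas and lung group held 3 mice, each liver group held 2, and the labels do not say which tumor line gave which library. The spleen and vein routes place cells in an organ directly, so that organ, injection route and time of growth cannot be told apart. Libraries held between 22495044 and 37510981 reads in nuclear peaks, and mitochondrial reads made up 1.43% to 3.56% of the table. Start sites of the 7 tumor epithelium markers (Krt8, Krt18, Krt19, Epcam, Cdh1, Cldn4 and Muc1) were open in every library, with a summed normalized count of 14320 to 32973 outside the liver and 39395 to 52833 in it.

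Accessible regions away from start sites are mostly enhancers, at which sequence-specific transcription factors displace nucleosomes. AP-1 dimers of JUN and FOS proteins and RUNX factors are common at enhancers of mesenchymal and invasive cells, whereas HNF4 and HNF1 factors act in endodermal epithelia such as liver, gut and pancreas. SMAD4 is the shared partner of the receptor-activated SMADs, binds DNA with them downstream of TGFβ receptors, and usually acts at sites that other factors have already opened.

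The 6 liver-closed peaks with the largest ratio of open to liver level are shown by the central 200 bases of each, because they are the extreme cases of the pattern, with capitals marking matches to the AP-1 motif TGANTCA. Peak positions are on mm10, sequences are the plus strand of RefSeq GRCm38.p6, the same build, and names give the nearest protein-coding start site within 100 kb or the gene whose intron holds the peak.
Vmn1r174 (intergenic), chr7:23771436-23771635: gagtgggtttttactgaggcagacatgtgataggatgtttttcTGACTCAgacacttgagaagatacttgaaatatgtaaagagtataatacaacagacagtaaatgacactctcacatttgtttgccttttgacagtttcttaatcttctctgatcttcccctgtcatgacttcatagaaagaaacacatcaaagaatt
Pthlh (intergenic), chr6:147338204-147338403: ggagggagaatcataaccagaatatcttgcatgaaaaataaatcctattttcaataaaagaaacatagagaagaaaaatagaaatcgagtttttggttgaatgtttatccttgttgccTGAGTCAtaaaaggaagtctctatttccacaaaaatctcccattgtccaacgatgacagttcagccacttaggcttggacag
Kcnk2 (intron), chr1:189231814-189232013: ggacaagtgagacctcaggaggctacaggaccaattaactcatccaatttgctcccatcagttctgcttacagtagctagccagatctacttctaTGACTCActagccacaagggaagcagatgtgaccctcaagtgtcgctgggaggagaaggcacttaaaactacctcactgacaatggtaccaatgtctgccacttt
Gm8257 (intron), chr14:44663266-44663465: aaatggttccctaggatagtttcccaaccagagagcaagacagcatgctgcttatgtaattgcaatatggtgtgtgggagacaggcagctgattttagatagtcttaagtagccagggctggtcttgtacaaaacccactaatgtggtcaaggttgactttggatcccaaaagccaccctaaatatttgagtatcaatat
Stc1 (intergenic), chr14:69099343-69099542: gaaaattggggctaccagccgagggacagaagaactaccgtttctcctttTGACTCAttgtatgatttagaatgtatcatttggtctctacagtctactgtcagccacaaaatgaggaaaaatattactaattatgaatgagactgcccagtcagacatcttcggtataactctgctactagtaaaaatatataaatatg
Mei4 (intron), chr9:82138999-82139198: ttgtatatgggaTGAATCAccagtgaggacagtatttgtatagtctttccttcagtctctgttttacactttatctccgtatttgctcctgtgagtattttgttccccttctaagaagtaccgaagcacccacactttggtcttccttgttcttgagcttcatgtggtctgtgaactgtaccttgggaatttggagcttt
Of these 6 windows, 5 held an AP-1 match and the one in Gm8257 held none.

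Across the 6007 peaks, the levels in single libraries showed how much lower the liver was. Over all nuclear peaks, the median count was 49.4 to 52.4 in the liver libraries and 48.9 to 59.3 in the others. In Smad4 off tumors, the median normalized count of a liver-closed peak was 87.1, 86.7 and 88.0 in the 3 pancreas libraries, 14.8 and 18.1 in the 2 liver libraries and 152, 64.1 and 106 in the 3 lung libraries. In Smad4 on tumors, it was 116, 115 and 176 in the pancreas, 41.9 and 20.3 in the liver and 119, 93.9 and 93.3 in the lungs. All 4 liver libraries lay below all 12 others in 3838 of the 6007 peaks (63.9%). Among the liver libraries, Liv_ON replicate 1 was the highest in 5237 peaks (87.2%), and among the 12 others, Lung_OFF replicate 2 was the lowest in 2860 (47.6%). Liver-closed peaks took 2.78% to 5.04% of a pancreas library's normalized reads in peaks, 1.97% to 4.34% of a lung library's and 0.422% to 1.27% of a liver library's.

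**Figure D1:**
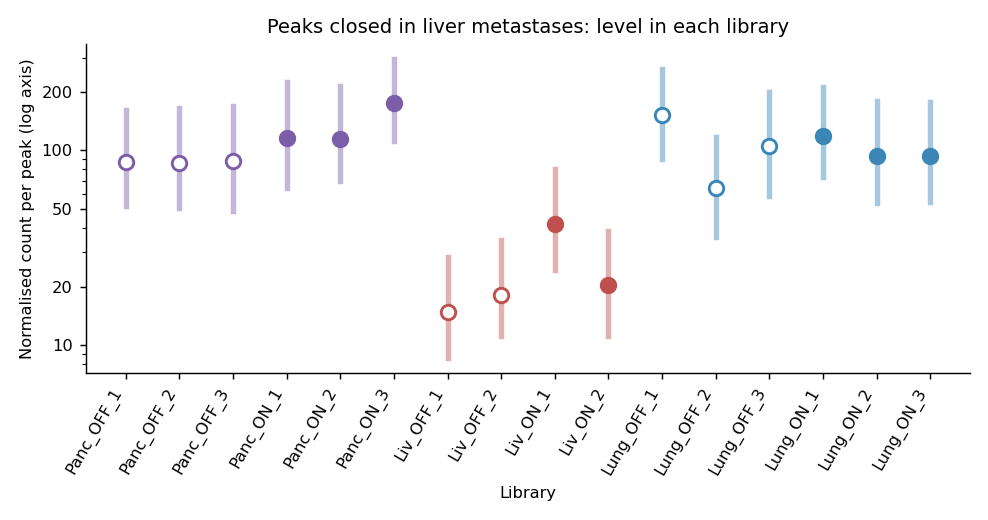
Level of the 6007 liver-closed peaks in each library. The y axis is the normalized count per peak (log axis), circles are medians, filled for Smad4 on and open for Smad4 off, and bars span the middle 50% of peaks. The 4 liver medians lie between 14.8 and 41.9 and the 12 others between 64.1 and 176.

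Most of these peaks were several-fold lower in the liver, and few were close to absent there. The smaller of the lung and pancreas means was 3.79 times the liver mean in the median peak and 16.8 times at most. It was at least 4 times the liver mean in 2468 peaks (41.1%), at least 6 times in 376 (6.26%) and at least 10 times in 18 (0.300%). At the edge of the rule, the members just inside were near S1pr1, a receptor of sphingosine 1-phosphate, near Prrx2, a mesenchymal homeobox gene, and at chr8:112730446-112732572 with no start site within 100 kb. At the first of these, the pancreas, liver and lung means were 195, 46.0 and 138. The peaks just outside were near Sema4d, a semaphorin gene, near Synj2, a phosphoinositide phosphatase gene, and at chr5:14162432-14163003, and at the first of these the means were 45.8, 15.3 and 59.3.

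The most extreme peaks were low and varied strongly among mice. The peak near Vmn1r174, a vomeronasal receptor gene, had counts of 77.7, 43.8 and 91.7 in Panc_OFF, 21.3, 32.2 and 143 in Panc_ON, 3.70 and 8.36 in Liv_OFF, 1.16 and 3.05 in Liv_ON, 192, 65.2 and 90.5 in Lung_OFF and 44.9, 13.4 and 16.8 in Lung_ON. The peak in Kcnk2, which encodes a potassium channel, had 32.5, 37.5 and 25.9 in Panc_OFF, 49.8, 79.2 and 96.6 in Panc_ON, 2.47 and 1.39 in Liv_OFF, 5.82 and 2.03 in Liv_ON, 99.4, 25.0 and 62.0 in Lung_OFF and 44.9, 8.63 and 6.53 in Lung_ON. In both, Lung_OFF replicate 1 was the highest lung library, and the lowest lung libraries came within 2-fold of the highest liver library. The peak in Mei4 had 61.1 to 90.2 in Panc_OFF, 103 to 339 in Panc_ON, 2.47 and 12.5 in Liv_OFF, 30.3 and 3.05 in Liv_ON, 114 to 214 in Lung_OFF and 151 to 201 in Lung_ON, so that there the liver stood clear of all other libraries. The peaks near Pthlh, in Gm8257 and near Stc1 had liver counts of 0 to 8.15 and lung counts as low as 16.3, 4.67 and 10.9.

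The most open liver-closed peaks behaved more evenly. The strongest, 28 kb from the start of Plekho2, a gene for a pleckstrin homology domain protein, is shown by its central bases as the most open of them, with the capitals again an AP-1 match.
Plekho2 (intergenic), chr9:65549745-65549944: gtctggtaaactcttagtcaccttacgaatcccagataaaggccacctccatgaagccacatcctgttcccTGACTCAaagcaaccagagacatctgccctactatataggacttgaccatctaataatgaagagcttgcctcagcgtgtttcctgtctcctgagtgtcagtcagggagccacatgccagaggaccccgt
It had counts of 1726, 1915 and 1990.1 in Panc_OFF, 2632, 2298 and 2026 in Panc_ON, 441 and 459.8 in Liv_OFF, 882 and 572 in Liv_ON, 2038, 1399.7 and 1733 in Lung_OFF and 1863, 1725 and 1859.7 in Lung_ON. Every liver library lay below every other library. The next were in an intron of St3gal3, 86 kb from Artn, which encodes the neurotrophic ligand artemin, near Synpo, which encodes the actin-binding protein synaptopodin, and in an intron of Angptl2, which encodes a secreted angiopoietin-like protein. Their liver counts were 307 to 813, 320.4 to 850.2 and 273 to 714, against at least 1078, 1154 and 1063 elsewhere.

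Liver-closed peaks lay away from start sites more often than peaks at large. Intergenic positions held 47.9% of them, introns 40.003%, exons 6.91% and promoters, within 1000 bp of a start site of any transcript, 5.14%. Over all nuclear peaks, these shares were 38.3%, 40.1%, 6.93% and 14.6%. Among the 60893 peaks that met the same conditions on the lungs and pancreas but not the liver condition, the promoter share was 25.4%. A promoter peak was a liver-closed peak in 1.55% of cases and any other peak in 4.89%. The median distance to a protein-coding start site was 56878 bp, against 26833 bp for all peaks, and 2091 liver-closed peaks (34.8%) had none within 100 kb, against 21.0% of all peaks. UTRs were overlapped by 2.75%, against 12.04%. Median width was 749 bp against 589 bp, and median GC content 43.8% against 45.8%. Among the 60893 peaks that met the same lung and pancreas conditions, they were 1021 bp and 47.9%, so liver-closed peaks were narrower than those. Wider peaks collect more reads, and the rule asked for a mean of at least 40.

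By sequence, the AP-1 motif differed most in percentage points between liver-closed and all peaks among the 15 motifs searched, whereas by ratio HNF4 (0.24 times), ETS (0.39 times), KLF (0.51 times), the ZEB or SNAI box (0.53 times) and CREB (0.60 times) lay further from equality than AP-1 (1.64 times). Within the central 300 bp, the motif TGANTCA was found on either strand in 3362 of them (56.0%, 95% Wilson interval 54.7% to 57.2%), against 34.1% of all nuclear peaks and 29.2% of the peaks open alike in lungs and pancreas but not closed in the liver. Since promoters rarely held it (13.7% of all promoter peaks), the share was also taken over intronic and intergenic peaks alone, where it was 56.9% of liver-closed peaks against 37.998% of all. The RUNX motif TGTGGTT was present in 14.9%, against 10.9% of all peaks, and 463 liver-closed peaks held both (7.71% against 3.66%). A match to letters is cruder than a binding measurement, and base composition was not held equal between the sets.

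Among other motifs, SOX and SMAD matches were somewhat more frequent in liver-closed peaks, with Wilson intervals above the share of all peaks (17.7% to 19.7% and 9.83% to 11.4%). Over intronic and intergenic peaks alone the shares lay nearer, at 18.9% against 17.8% (SOX) and 10.2% against 9.81% (SMAD). The TEAD motif GGAATG was found in 20.5% of liver-closed and 20.1% of all peaks. The FOX motif TGTTTAC was found in 6.06% and 6.16%, and the GATA motif AGATAAG in 4.81% and 5.17%. The SMAD motif CAGACAG was found in 10.6% and 9.53%, the SOX motif ATTGTT in 18.7% and 16.2%, and the CEBP motif TTGCNNCAA in 2.80% and 2.54%. Motifs of epithelial factors were rarer. HNF4 (CAAAGTCCA) was present in 0.250% against 1.04%, HNF1 (GTTAATNAT) in 0.982% against 1.41%, and KLF (GGGTGTGG or GGGCGTGG) in 2.63% against 5.13%. The E-box CAGGTG of ZEB and SNAI factors was present in 10.0% against 18.8%. ETS (CCGGAAGT) was present in 0.266% against 0.684%, CREB (TGACGTCA) in 0.300% against 0.495% and CTCF (CCACCAGG) in 1.48% against 2.18%. Over intronic and intergenic peaks alone, HNF4 remained at 0.284% against 1.12% and the E-box at 9.81% against 17.9%, whereas ETS was at 0.284% against 0.334%.

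**Figure D2:**
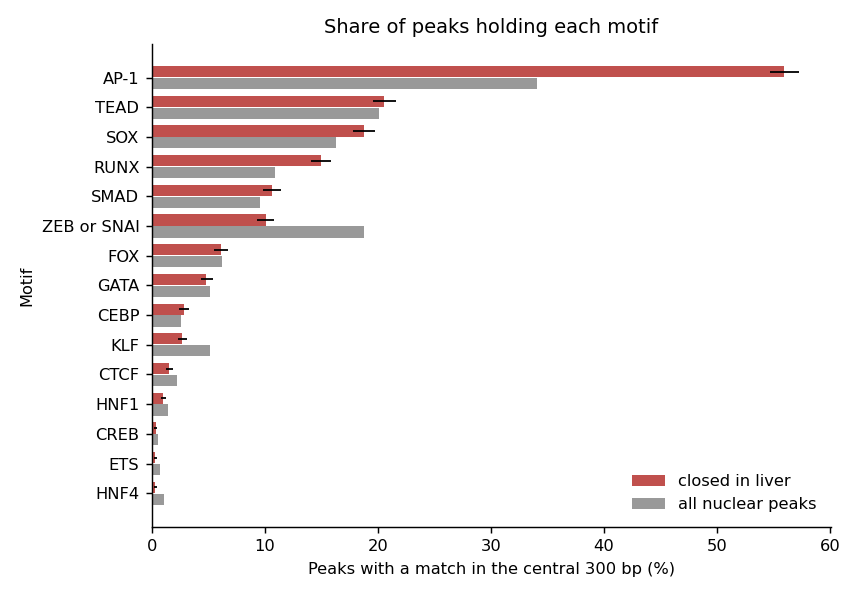
Share of liver-closed peaks (red, with 95% Wilson intervals) and of all nuclear peaks (gray) holding each motif in the central 300 bp. The x axis is percent of peaks and the y axis lists the 15 motifs. AP-1 was at 56.0% against 34.1%, and HNF4, KLF and the ZEB or SNAI box were lower in liver-closed peaks.

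Liver-closed peaks occurred in runs. A liver-closed peak had another as its next peak on either side in 28.0% of cases, against 7.33% for all other peaks, and 1837 of them (30.6%) lay in 448 runs of at least 3 with gaps of at most 50 kb. The longest run, 20 of the 32 peaks at chr2:73415729-73632540, spanned Wipf1, which encodes an actin regulator, Chn1, Chrna1, a muscle-type acetylcholine receptor subunit, and Gpr155. Next came 16 of 21 peaks at chr10:76622822-76733798, at the Col6a1 and Col6a2 genes, which encode chains of the microfibrillar collagen VI. A run of 13 of 22 peaks at chr15:66795151-66894585 held the matricellular gene Ccn4 (Wisp1), and 10 of these 13 rose on Smad4 restoration averaged over the organs. Among runs of 10 were 10 of 29 peaks at chr1:90652467-90805785, with Col6a3, a further collagen VI chain, and 10 of 19 at chr11:82006724-82169810, at a cluster of chemokine genes with Ccl2.

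By nearest protein-coding start site, 3916 liver-closed peaks were assigned to 2528 of 17818 genes, 782 genes had at least 2 and 65 at least 5. The genes with most were Col6a2 and Wipf1 with 10 each, then Frmd4a, Piezo2, Runx1 and Tnc with 9 each, and Ccdc54, Ccn4, Dclk1, Dock10, Pde1a and Pthlh with 8 each. Rbfox1 also had 8 and was left out of these 12 by alphabetical order. All 10 peaks assigned to Col6a2 were liver-closed. Among genes with at least 5 assigned peaks, the next largest shares were at Ccn4 (8 of 12), Chrna1 (4 of 6), Olfml3, Pign and Prlhr (3 of 5 each). Nearest start site is a rule of distance and does not show which gene an enhancer acts on.

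At Col6a2, the summed count of the 10 liver-closed peaks was 4273, 4479.9 and 5043 in Panc_OFF, 6239, 5166 and 3697 in Panc_ON, 765 and 803 in Liv_OFF, 1894 and 1068 in Liv_ON, 4229.6, 3355 and 4344 in Lung_OFF and 4312, 5111 and 4595 in Lung_ON. The liver libraries were the lowest 4, and Liv_ON replicate 1 was the highest of them. At Col6a1, 6 of 14 peaks were liver-closed, and their sum was 1988, 2185 and 2438 in Panc_OFF, 436 and 408 in Liv_OFF and 1916, 1636 and 2060.1 in Lung_OFF. The group includes the Col6a1 start site itself at chr10:76725327-76726587, with organ means of 584 (pancreas), 142 (liver) and 599 (lungs). Together these 16 peaks stretched from 7 kb before the Col6a1 start to 103 kb past it. Only 1 of the Col6a2 and 1 of the Col6a1 peaks was called higher on restoration averaged over the organs.

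**Figure D3:**
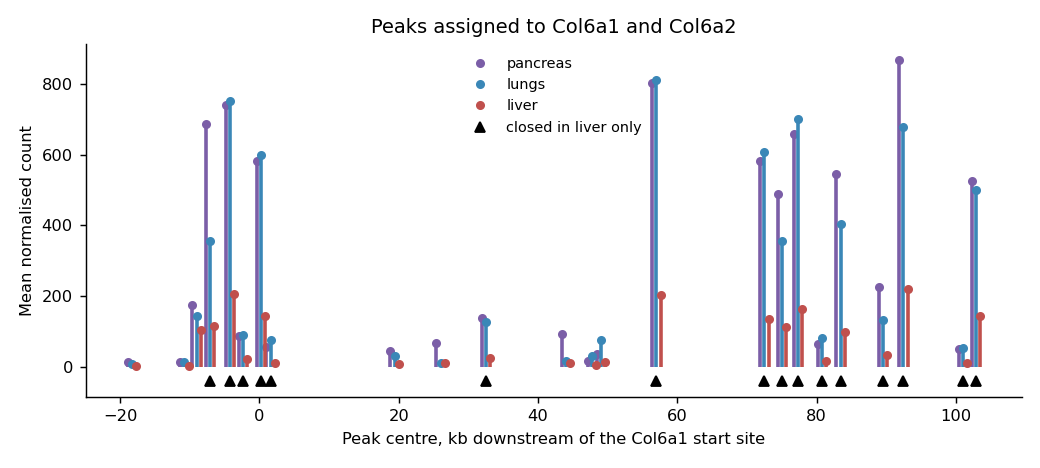
Peaks assigned to Col6a1 and Col6a2. The x axis is the distance of the peak center downstream of the Col6a1 start site in kb, the y axis is the mean normalized count over the 6 pancreas, 6 lung or 4 liver libraries, and triangles mark the 16 liver-closed peaks. The start-site peak at 0.21 kb had means of 584, 599 and 142 in pancreas, lungs and liver.

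Liver-closed peaks made up 3.63% of the peaks assigned to a protein-coding gene, and their share differed between gene lists, for which no test was made. Of 60 peaks assigned to the 7 tumor epithelium markers, 0 were liver-closed. Among 12 epithelial-mesenchymal transition (EMT) factors and mesenchymal genes, 25 of 196 peaks were (12.8%), at 10 genes including Cdh2 (N-cadherin) and Tcf4 with 5 each, and Vim (vimentin), Fn1 (fibronectin) and Snai1 with 3 each. Among RUNX factors and their partner, 14 of 112 peaks were (12.5%), 9 of them at Runx1. Collagens and laminins had 31 of 312 (9.94%), 16 of these at Col6a1 and Col6a2 and 5 at Col5a1. Integrins had 19 of 210 (9.05%), 7 of them at Itgb3. Of the 8 effectors that the study had named for Smad4 in these tumors, 20 of 87 peaks were liver-closed (23.0%), at Ccn4, Col6a1, Ccbe1 and Itga5, and none at Cdkn1c, Il11, Has2 or Id1. That list was drawn from the same tumor model and is no independent evidence of direction.

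Other lists are given against the same 3.63%. AP-1 subunit genes had 3 of 108 (2.78%), YAP and TEAD pathway genes 5 of 168 (2.98%), the TGFβ superfamily 14 of 407 (3.44%), of which 4 each were at Inhba and Ltbp1, axon guidance genes 15 of 378 (3.97%), MAPK feedback and output genes 13 of 304 (4.28%) and growth factor receptors and ligands 16 of 336 (4.76%). KLF factors had 6 of 184 (3.26%), HNF, FOXA and other endoderm factors 7 of 226 (3.10%), Wnt pathway genes 6 of 338 (1.78%) and cytoskeleton and focal adhesion genes 7 of 543 (1.29%). Matrix proteases and inhibitors had 9 of 142 (6.34%), cytokines and chemokines 13 of 223 (5.83%), 4 of them at Ccl2, and the basal and squamous program 10 of 123 (8.13%), 8 of them at Pthlh, which lies in the region of chromosome 6 in which 1 library stood apart.

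Marker genes of other cell types that a sort could carry along were examined at their start sites. The 6 measured fibroblast or stellate cell markers (Col1a1, Col1a2, Pdgfra, Pdgfrb, Dcn and Lum, of 8 listed) had a summed count of 1747 to 2899 in pancreas libraries, 896 to 1044 in liver libraries and 1055 to 1423 in lung libraries, and 5 of 68 peaks at such genes were liver-closed (7.35%). At endothelial markers 4 of 52 (7.69%) were, at acinar markers 3 of 33 (9.09%), at hepatocyte markers 1 of 34 (2.94%), and at macrophage and lung epithelium markers 0 of 21 and 0 of 44. The largest part of the fibroblast sum was Col1a1, the locus that carries the shRNA cassette. It was at 1258 to 1727 in the pancreas, 728 to 839 in the liver and 909 to 1172 in the lungs. Pdgfrb was at 320 to 676 in the pancreas, 75.2 to 133 in the liver and 109 to 396 in the lungs. Dcn and Lum were at 49.8 to 272 in the pancreas and at 1.87 to 33.3 in all liver and lung libraries. Col1a2 and Pdgfra were at 16.6 or less in all liver and lung libraries. The endothelial sum (Cdh5, Kdr, Tek and Tie1, of 6) was lowest in the liver, at 130 to 144, against 178 to 244 in the pancreas. In the lungs it was 156 to 236 except in Lung_OFF replicate 1 with 767, of which 697 was Cdh5. Tie1 alone was not lower in the liver (56.8 to 77.2, against 22.1 to 76.8 elsewhere). The hepatocyte sum (Ttr and Apoh, of 10, with no start-site peak at Alb) was 184 to 263 in the liver and 22.2 to 110 elsewhere, and the macrophage sum (Csf1r and Cd68, of 8) was 460 to 796 and 215 to 420. The acinar sum (Cela1, Prss2, Bhlha15 and Rbpjl, of 6) was 475 to 576 in the pancreas, 723 to 884 in the liver and 523 to 644 in the lungs, and the lung epithelium sum (Hopx alone, of 6) was 200.1 to 340.5, 284 to 451 and 206 to 302. Within the acinar sum, Prss2 went the other way, at 79.4 to 157 in the liver and 181 to 405 elsewhere. The part of other cells in the organ difference was not tested.

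The start-site sum of the epithelial markers was low in several libraries in which liver-closed peaks were most open. It was 20804 to 23084 in Panc_OFF and 14320 to 18602 in Panc_ON, although within Panc_ON it was highest in replicate 3, where liver-closed peaks were also highest. In the liver it was lowest in Liv_ON replicate 1 (39395, against 49955 to 52833), the library in which liver-closed peaks were most open. In the lungs it was lowest in Lung_OFF replicate 1 (21250), where liver-closed peaks were most open, and highest in Lung_OFF replicate 2 (32973), where they were least open. Fewer cells in one state and a graded change in every cell cannot be told apart in bulk libraries, and the part of this shift in the values that follow was not tested.

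Distal chromosome 6 stood apart in 1 library. At chr6:124004995-149586306, the median peak of Lung_OFF replicate 1 was 1.85 above its mean over libraries on the log2 scale, against -0.61 to 0.44 in the 15 other libraries. This region held 177 liver-closed peaks, 7.34% of its 2411 peaks against 4.34% elsewhere, and 102 of the 177 still met the rule without that library, as did 4792 of the 5830 elsewhere (82.2%). The Pthlh peaks lie here, with a summed count of 6831 in Lung_OFF replicate 1 and 1224 to 4725 in the 5 other lung libraries. Runs of 15 and 12 liver-closed peaks, at chr6:144638397-144821796 and chr6:145438756-145638525, also lie in it.

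The rule pooled Smad4 off and on libraries within an organ and did not compare them. It was still not independent of restoration, since it drew on the same libraries and high values in one group could carry a peak past it. Without Panc_ON replicate 3, 4582 of the 6007 peaks still met the rule, against at least 5831 when any other single pancreas library was left out. Over the same 6007 peaks, the median change in the pancreas was 0.43 without Panc_ON replicate 3. How far the rule shaped the values below was not tested. Liver-closed peaks were on balance more open with Smad4 on in the pancreas and in the liver and not in the lungs. The median log2 fold change was 0.58 in the pancreas (all nuclear peaks, 0.04), 0.78 in the liver (0.02) and 0.08 in the lungs (-0.0024). The lung median had no stable sign: it was 0.33 without Lung_OFF replicate 1, -0.23 without Lung_OFF replicate 2 and -0.01 by edgeR and DESeq2. Values were above 0 for 92.0% (pancreas), 90.0% (liver) and 57.1% (lungs) of liver-closed peaks, against 53.3%, 51.3% and 49.6% of all peaks. In the liver, this left them still low: the Liv_ON mean was 32.6% of the smaller of the Lung_ON and Panc_ON means in the median peak, against 21.6% for the Smad4 off groups. That value was 42.7% in Liv_ON replicate 1 and 20.9% in Liv_ON replicate 2, so that only replicate 1 lay above the Smad4 off value.

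**Figure D4:**
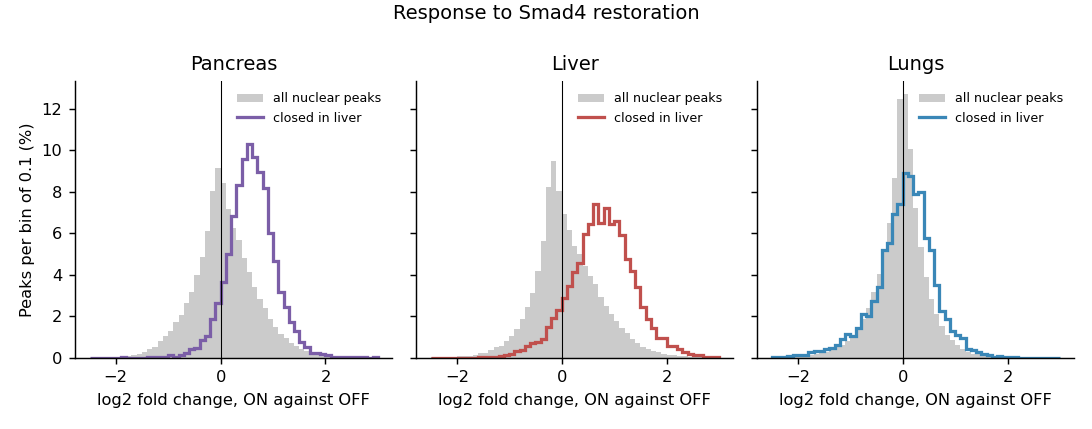
Response to Smad4 restoration in each organ. The x axis is the limma log2 fold change of Smad4 on against off, and the y axis the percent of peaks in each bin of 0.1, for the 6007 liver-closed peaks (colored line) and all 136630 nuclear peaks (gray). The medians of the colored lines are 0.58, 0.78 and 0.08 in pancreas, liver and lungs.

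Peak by peak, few passed the test within one organ. A peak was called when limma gave a log2 fold change of 0.58 or more in either direction together with an adjusted p no higher than 0.1 (Benjamini-Hochberg, over all 136630 peaks). In the pancreas, 51 liver-closed peaks rose (0.849%) and 2 fell, against 0.364% of all peaks higher and 3.06% lower. In the liver, 155 rose (2.58%) and 1 fell, against 0.462% and 0.0886%. In the lungs 0 passed by limma, against 0.00146% of all peaks higher and 0.0022% lower, although 624 liver-closed peaks (10.4%, against 7.11% of all peaks) had an unadjusted p below 0.05 and DESeq2 called 61 higher and 64 lower, of 452 and 545 over all peaks. Averaged over the organs, 1236 rose (20.6%) and 9 fell (0.150%), against 3.61% and 3.0% of all peaks. With lung replicates of the same number treated as pairs, the counts that rose were 436 in the pancreas, 431 in the liver and 1619 on average, against 1.63%, 1.19% and 4.83% of all peaks. The labels do not give this pairing, which was chosen from these data.

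The spread between mice showed the same picture without a model. All Panc_ON libraries lay above all Panc_OFF libraries in 2695 liver-closed peaks (44.9%, against 12.2% of all peaks) and below them in 33 (13.3% of all peaks). All Liv_ON lay above all Liv_OFF libraries in 2807 (46.7%, against 21.6%) and below in 87 (22.9% of all). All Lung_ON lay above all Lung_OFF libraries in 395 (6.58%, against 5.89%) and below in 128 (4.82% of all). Separation of 2 libraries from 2 is a weak criterion, which the share over all liver peaks shows.

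These counts depended on single libraries. Without Liv_ON replicate 1, 0 liver-closed peaks passed in the liver (0 of all peaks rose either) and the median was 0.28. Without Liv_ON replicate 2 the liver median was 1.30, and without Liv_OFF replicate 1 it was 0.63. Each of these fits left 1 library in a liver group. In the pancreas, leaving out any one of its 6 libraries left between 1 and 17 calls, while its median stayed between 0.43 and 0.67. Over all peaks, these fits called 10 to 407 higher and 443 to 4471 lower. Averaged over the organs, the median was 0.30 without Liv_ON replicate 1, 0.42 without Liv_OFF replicate 1 and 0.64 without Liv_ON replicate 2. Without Lung_OFF replicate 2, 725 rose and 14 fell on average, of 2778 and 2535 over all peaks. Without Lung_OFF replicate 1, 2239 rose and 12 fell, of 9619 and 6664 over all peaks. None of the called increases lay in distal chromosome 6.

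The liver peaks of smallest p rose from unlike levels in Liv_OFF. The start was near closure at Kcna4 and near the median of all nuclear peaks (49.4 and 50.2) at Piezo2. The peak 36 kb from Kcna4, which encodes a voltage-gated potassium channel, is shown because it held both an AP-1 and a RUNX (TGTGGTT) match, in capitals, and moved most among these liver peaks.
Kcna4 (intergenic), chr2:107327258-107327457: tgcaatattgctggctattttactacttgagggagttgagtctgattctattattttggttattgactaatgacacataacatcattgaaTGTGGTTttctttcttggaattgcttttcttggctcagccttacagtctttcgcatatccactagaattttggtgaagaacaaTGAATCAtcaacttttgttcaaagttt
It had counts of 4.94 and 4.18 in Liv_OFF, 62.9 and 29.5 in Liv_ON, 119.6, 75.04 and 89.8 in Panc_OFF, 92.4, 134 and 131 in Panc_ON, 79.2, 59.8 and 74.96 in Lung_OFF and 84.2, 106 and 70.9 in Lung_ON. Both Liv_ON libraries exceeded both Liv_OFF libraries, and one reached the lowest lung libraries, for a log2 fold change of 2.99 (SE 0.37, adjusted p = 0.0117, limma). The peak 75 kb from Piezo2, a mechanically gated ion channel gene, had 54.3 in both Liv_OFF libraries and 499.7 and 302 in Liv_ON, against 374 to 1056 in Lung_OFF, for a log2 fold change of 2.81 (SE 0.35, adjusted p = 0.0117, limma). A further Piezo2 peak, 19 kb from its start, had 59.2 and 41.8 in Liv_OFF and 276 and 176 in Liv_ON (log2 fold change 2.12, SE 0.27, adjusted p = 0.0117, limma). All 3 calls were lost without Liv_ON replicate 1, with log2 fold changes of 2.46, 2.45 and 1.799.

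In the pancreas, the peaks of smallest p included one 79 kb from Spcs3, a signal peptidase gene, and one in an intron of Stard13, a RhoGAP gene. The Spcs3 peak had 621, 498 and 555 in Panc_OFF and 872, 857 and 1129.8 in Panc_ON (log2 fold change 0.76, SE 0.17, adjusted p = 0.0313, limma). The Stard13 peak had 71.7, 87.5 and 114 in Panc_OFF and 266, 198 and 191 in Panc_ON (1.26, SE 0.30, adjusted p = 0.0432, limma). The groups did not overlap in either of them. The Spcs3 call was lost without Panc_OFF replicate 2. The Stard13 call was lost without Panc_OFF replicate 1 or 2 or Panc_ON replicate 1 or 2. The 1 peak that fell without overlap, 10 kb from A530084C06Rik, went from 71.7, 57.2 and 51.9 to 24.9, 23.5 and 22.2 (log2 fold change -1.31, SE 0.31, adjusted p = 0.0430, limma), and was lost without any one of 4 pancreas libraries.

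Averaged over the organs, the smallest p belonged to a peak in an intron of Stac, an adaptor protein gene. It had 332, 503 and 266 in Panc_OFF, 507, 566 and 990.3 in Panc_ON, 37.0 and 37.6 in Liv_OFF, 188 and 116 in Liv_ON, 209.9, 133 and 212 in Lung_OFF and 672, 505 and 479.6 in Lung_ON. Smad4 on libraries exceeded all off libraries in each of the 3 organs, for an average log2 fold change of 1.48 (SE 0.18, adjusted p = 0.00136, limma). The peak 75 kb from Piezo2 followed (1.42, SE 0.18, adjusted p = 0.0017, limma). A peak in an intron of the sarcomere gene Myom1, 59 kb from Lpin2, came next and is shown because it held an AP-1 match, in capitals.
Myom1 (intron), chr17:71124299-71124498: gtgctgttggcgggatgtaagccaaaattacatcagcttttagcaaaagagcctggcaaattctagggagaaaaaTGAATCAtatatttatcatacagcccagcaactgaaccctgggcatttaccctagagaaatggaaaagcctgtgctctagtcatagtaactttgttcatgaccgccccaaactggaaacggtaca
It had 102, 103 and 88.0 in Panc_OFF, 140.5, 132 and 153 in Panc_ON, 12.3 and 13.9 in Liv_OFF, 59.4 and 46.7 in Liv_ON, 81.0, 64.1 and 64.6 in Lung_OFF and 104, 167 and 144 in Lung_ON (average log2 fold change 1.14, SE 0.15, adjusted p = 0.0017, limma), again without overlap in any organ.

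Few liver-closed peaks fell. The smallest p among the 9 that fell on average belonged to an intergenic peak at chr13:52132755-52133890 with no start site within 100 kb (-0.89, SE 0.20, adjusted p = 0.0209, limma), followed by an intronic peak of Adgrf1, an adhesion GPCR gene, and the start site of Serpinb9g, a serine protease inhibitor gene. The Adgrf1 peak had 86.4 and 68.3 in Liv_OFF and 37.3 and 18.3 in Liv_ON and was the only 1 that fell in the liver (log2 fold change -1.52, SE 0.35, adjusted p = 0.0961, limma), a call lost in 20 of the alternatives tried. The Vmn1r174 peak shown above fell on average as well (-1.31, SE 0.40, adjusted p = 0.0642, limma), a call lost without any one of 8 libraries in turn.

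Of the 155 peaks that rose in the liver, 150 had values above 0 in the pancreas and 141 in the lungs, which are separate mice, where 92.0% and 57.1% of all liver-closed peaks had, and 7 were also called in the pancreas (4.52% of the 155 and 13.7% of the 51). The 51 called in the pancreas were all above 0 in the liver, as were 90.0% of all liver-closed peaks, and 33 were above 0 in the lungs. These comparisons share a limma estimate of the spread and no libraries. AP-1 matches were present in 86 of the 155 (55.5%), 23 of the 51 (45.1%) and 733 of the 1236 that rose on average (59.3%), near the 56.0% of all liver-closed peaks. With an AP-1 match, 21.8% of liver-closed peaks rose on average, and without one 19.0%. With a SMAD motif 22.0% did, and without one 20.4%.

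The median response in the pancreas was larger in each bin of peaks more closed in the liver, and that in the liver was larger up to a ratio of 4 to 6 and smaller beyond. Among peaks with lung and pancreas means of at least 40 and within 2-fold of each other, those with a smaller mean of 1 to 1.5 times the liver mean had median log2 fold changes of 0.06 (pancreas), 0.10 (liver) and 0.07 (lungs). At 2 to 3 times, just outside the rule, they were 0.35, 0.58 and 0.11, and at 3 to 4 times 0.52, 0.76 and 0.10. At 4 to 6 times, they were 0.67, 0.82 and 0.06, and at 6 times or more 0.84, 0.67 and -0.07. The share that rose on average went from 2.42% at 1 to 1.5 times to 14.3% at 2 to 3 times and 21.4% at 3 to 4 times, and was 11.2% at 6 times or more, where liver counts were lowest. Peaks more open in the liver than elsewhere lay on the other side, with medians of -0.52, -0.22 and -0.06 below 0.5 times. All these peaks share the libraries of the ratio, so no test is attached. The AP-1 share was 22.0% below 0.5 times, 19.9% at 0.5 to 1 times, 51.8% at 2 to 3 times and 58.5% at 6 times or more.

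**Figure D5:**
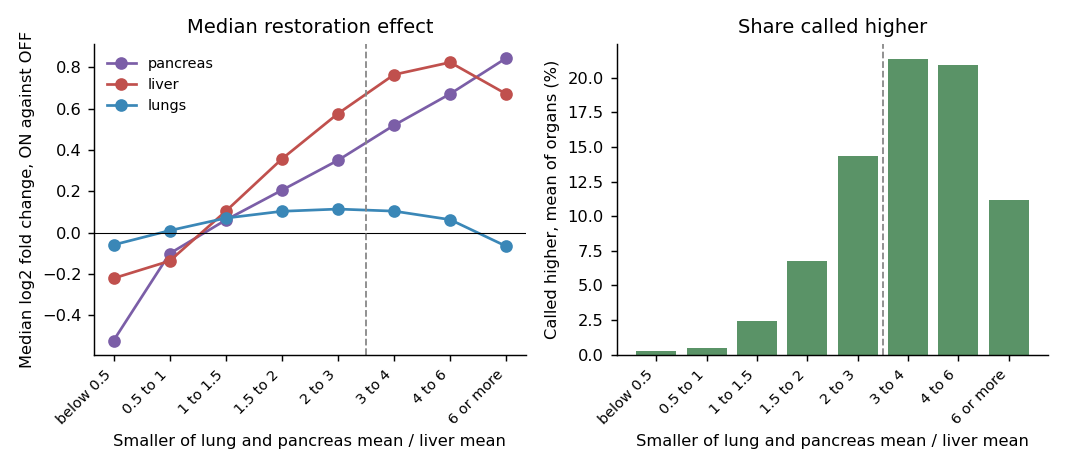
Restoration effect against closure in the liver, among peaks open alike in lungs and pancreas. The x axis bins the smaller of the lung and pancreas means over the liver mean, the left y axis is the median log2 fold change in each organ, the right y axis the percent called higher on average, and the dashed line is the threshold of 3. In the bin of 3 to 4, medians are 0.52, 0.76 and 0.10 in pancreas, liver and lungs and 21.4% were called.

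The organs were also compared for the size of the response. Over liver-closed peaks, the median response in the liver exceeded that in the lungs by 0.72 (all peaks, 0.02) and that in the pancreas by 0.22 (0.04), and the lungs differed from the pancreas by -0.48 (-0.01), on the log2 scale. Without Liv_ON replicate 1, the difference between liver and pancreas turned to -0.29 and that between liver and lungs was 0.22. The difference between lungs and pancreas was -0.22 without Lung_OFF replicate 1 and -0.80 without Lung_OFF replicate 2. By limma, 0 peaks of either kind passed for any of the 3 (0.0% of all peaks), with 921, 314 and 716 liver-closed peaks at an unadjusted p below 0.05 (15.3%, 5.23% and 11.9%, against 5.25%, 3.95% and 10.96% of all peaks). DESeq2 called 24 liver-closed peaks higher (of 45 over all peaks), 1 higher (of 22) and 179 (10 higher and 169 lower, of 1576 and 674 over all peaks). With the lung replicates paired, 130 liver-closed peaks had a lower and 4 a higher response in the lungs than in the pancreas, against 0.475% of all peaks (649) lower and 1736 of all peaks higher. That pairing was chosen from these data, since the labels give none. The smallest p among the 130 belonged to an intronic peak 4.9 kb from the start of Ear1, an eosinophil ribonuclease gene, with 30.7, 19.7 and 33.3 in Panc_OFF, 72.0, 109 and 85.1 in Panc_ON, 163, 104 and 58.6 in Lung_OFF and 50.5, 9.58 and 14.9 in Lung_ON (difference -3.94, SE 0.50, adjusted p = 0.0155, limma), a peak singled out after its values were seen. Without Lung_OFF replicate 2 and with no pairing, 284 were lower and 5 higher, of 1393 and 2607 over all peaks.

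Among single genes, Piezo2 and Ccn4 had the most liver-closed peaks that rose on average. The summed count of the 8 liver-closed peaks of Ccn4 was 2389, 3559 and 3362 in Panc_OFF, 5219, 4761 and 3043 in Panc_ON, 427 and 286 in Liv_OFF, 1358 and 531 in Liv_ON, 1646, 1161 and 2678 in Lung_OFF and 2486, 3476 and 2837 in Lung_ON. Of these 8, 7 rose on average over the organs, and the libraries overlapped in the pancreas and lungs. The 9 of Piezo2 summed to 2513, 2487 and 2169 in Panc_OFF, 3636, 4263 and 4471 in Panc_ON, 275 and 231 in Liv_OFF, 1508 and 886 in Liv_ON, 2722, 1216 and 3253 in Lung_OFF and 3150.2, 3063 and 2742 in Lung_ON, and 8 of them rose on average. Pancreas and liver groups did not overlap, and lung groups did.

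Adarb1, Rbfox1 and Tnc followed, with 5 each that rose on average, at Tnc 5 of 9. Ccbe1 (a secreted factor of lymphatic growth), Dock10, Dpysl3, Hrh4, Itgb3 (the integrin β3 subunit), Kcna4, Nav1 and Plxna4 had 4 each. At Itgb3 these were 4 of 7 and at Ccbe1 4 of 4. The sum over Tnc was 1215, 1417 and 1459 in Panc_OFF, 2179, 2008 and 2325 in Panc_ON, 191 and 217 in Liv_OFF, 596 and 366 in Liv_ON and 790.1 to 1735 in the lungs. The sum over Ccbe1 was 87.6 and 43.2 in Liv_OFF and 309 and 203 in Liv_ON. Inhba, which encodes the activin βA subunit, had 3 of 4 that rose, and Itga5, the fibronectin receptor α5 subunit, had 2 of 2. By contrast, 0 of 9 at Frmd4a, 0 of 8 at Pthlh, 0 of 5 at Cdh2, 0 of 5 at Tcf4, 0 of 3 at Vim, 0 of 6 at Grem1 and 0 of 4 at Ccl2 rose, 1 of 10 did at Col6a2 and Wipf1 each, and 2 of 9 did at Runx1. Median average log2 fold changes were 0.86 at Ccn4, 1.04 at Piezo2, 0.66 at Tnc, 0.42 at Col6a2, 0.35 at Vim and 0.00 at Cdh2, against 0.47 over all liver-closed peaks.

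By list, the liver-closed peaks that rose on average were 5 of 25 for EMT factors and mesenchymal genes, 7 of 19 for integrins, 6 of 31 for collagens and laminins, 3 of 14 for RUNX factors, 6 of 14 for the TGFβ superfamily and 14 of 20 for the effectors named by the study, against 20.6% of all liver-closed peaks. Their medians were 0.48, 0.55, 0.42, 0.49, 0.69 and 0.86 in that order. Among other lists, 2 of 3 rose for AP-1 subunits, 1 of 15 for axon guidance, 1 of 13 for cytokines and chemokines, 2 of 16 for growth factors and their receptors, 2 of 6 for KLF factors, 1 of 9 for matrix proteases, 1 of 7 for cytoskeleton genes, and 0 for the Wnt pathway (of 6), YAP and TEAD (of 5), MAPK feedback (of 13), endoderm factors (of 7) and the basal and squamous program (of 10). None fell in any of these lists.

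Of the liver-closed peaks, 309 lay at start sites, 91 of them of protein-coding genes, and 60 of the 309 rose and 2 fell on average. Among all liver-closed peaks 20.6% rose and 0.150% fell, against 3.61% and 3.0% of all peaks. The most open were at noncoding start sites 61 kb from Pgbd5, 73 kb from Cops8, 14 kb from Snai1, the gene of an EMT repressor, 5.8 kb from E2f8 and 3.7 kb from Col6a1. Next came the start sites of Dpysl3, which encodes a cytoskeletal collapsin-response protein, Podnl1, a small leucine-rich proteoglycan gene, Grem1, a secreted BMP antagonist, and Ifitm1, an interferon-induced membrane protein gene, and a noncoding start within Frmd4a. The Grem1 start site had 958, 837 and 1072 in Panc_OFF, 188 and 242 in Liv_OFF, 379 and 135 in Liv_ON and 1138, 478 and 792 in Lung_OFF. Every liver library lay below every other library there. The noncoding start 14 kb from Snai1 had 185 and 171 in Liv_OFF, 388 and 313 in Liv_ON and 567 to 922 elsewhere. The one 73 kb from Cops8, in the run with Col6a3, had 65.4 and 76.6 in Liv_OFF, 387 and 201 in Liv_ON and 365 to 1336 elsewhere, and of these 10 it was the only 1 that rose on average (1.03, SE 0.19, adjusted p = 0.00973, limma).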

How the data were processed

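Bulk ATAC-seq of sorted tumor cells was analyzed in 16 libraries of 6 groups, taken from the sample titles. Columns named by doxycycline status were read as Smad4 off with the drug and on without it, and the lung columns carry d15 although the stated interval is 14 days.

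The deposited signal is a normalized count per peak. Per the study's methods, the authors used Trim Galore with cutadapt for trimming, Bowtie2 for alignment (mm10) and MACS2 for peaks (p of at most 0.001, blacklisted regions removed), merged peaks within 500 bp, counted reads with featureCounts and divided by DESeq2 size factors, which assume that most peaks do not change. The table is called filtered and the filter is not given in the sources used here, nor are the shift of Tn5 cut sites and the removal of duplicates, so counting error may be understated. Divided by what 1 read was worth in its library, each value gave a whole number (100% within 0.01 reads). The mitochondrial row was left out of tests, and 136630 peaks remained.

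limma 3.58.1 (R 4.3.3, trend and robust) was fitted to log2(normalized count + 1) with 6 group means, a scale that understates changes of low peaks. Contrasts were restoration in each organ, its average and its differences between organs. DESeq2 1.42.0 and edgeR 4.0.16 on recovered reads were alternatives. Tested on simulated counts for pancreas restoration over all peaks, the fit recovered 100% of 4-fold changes and 34% and 46% of 2-fold decreases and increases. The simulation gave every peak the same dispersion between libraries and changed only peaks with a mean above 40. These shares therefore do not carry over to the deposited libraries. There the median SE of liver-closed peaks was 0.42 in the pancreas, 0.42 in the lungs and 0.51 in the liver. Positions were taken as 1-based. GENCODE vM21 basic gave start sites, and distances run from the peak's nearer edge. Motifs were searched on both strands of GRCm38.p6, and matches of different motifs could overlap. Wilson intervals cover counting error only.

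Lung replicates of the same number deviated together (correlations 0.491, 0.124 and 0.214 over all peaks) and were taken as paired on that ground, since the labels give no shared litter or day. Pancreas replicates did not (-0.33, 0.0271 and -0.33), nor did liver replicates (0.0834).

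The members, gene lists and rules were chosen with earlier results of these data known. Named were the 6 peaks of largest open-to-liver ratio (liver mean + 1), the 4 most open, per restoration contrast and direction the 3 calls with the lowest p (without overlap of replicates within an organ), the 12 genes with most members and 6 with the largest share, the 10 most open start-site members, 3 peaks on each side of the threshold, and listed genes. A peak and an allele that these rules or the design would name are not reported here.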

Additional observations from a re-analysis of the deposited data

Results flagged for a closer look

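With lung replicates of the same number paired, limma called a lower restoration effect in the lungs than in the pancreas in 130 liver-closed peaks (adjusted p of at most 0.1). The pairing was chosen from correlations in these same libraries and is not given by the labels, and without it 0 passed. Over all peaks, 649 were lower and 1736 higher in the paired fit. In 35 liver-closed peaks (0.583%, against 0.252% of all nuclear peaks), every Panc_ON library lay above every Panc_OFF library and every Lung_ON library below every Lung_OFF library. In 22 (0.366%), every Liv_ON library lay above every Liv_OFF library and the lungs moved the opposite way as before. This share was close to the 0.338% of all peaks, so this count does not set liver-closed peaks apart. For these 35 and 22 peaks the difference itself was not tested beyond the counts given for the organ comparisons. Groups of 2 or 3 libraries are too small for a test of single outlying values.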

How the results depend on the processing

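The median change of the liver-closed peaks stayed above 0 in the pancreas, the liver and the average under all alternatives run, and in the lungs it lay between -0.23 and 0.33. Counts moved. In the pancreas (53 calls) there were 82 at a mean count of at least 20, 232 with quantile normalization, 84 by edgeR, 613 by DESeq2, 3 at thresholds of 1 and 0.05, 719 with only the pancreas groups, 34 with GC correction, and with a replicate block 273 in every organ, 442 in the lungs only and 174 with GC correction. In the liver (156) there were 54 with a pseudocount of 10 and also with quantile normalization, 267 with TMM factors, 25 by edgeR, 725 by DESeq2, 34 at the stricter thresholds, 3 with only the liver groups, 101 with GC correction, and with a replicate block 93, 433 (lungs only) and 20 (with GC correction). In the lungs (0), the block in the lungs only gave 2 and DESeq2 125. The average (1245) gave 251 at the stricter thresholds. For differences between organs (0 each), DESeq2 gave 1 (liver against pancreas), 24 (liver against lungs) and 179 (lungs against pancreas), and for the last the block gave 14, 134 (lungs only) and 11 (with GC correction). Leaving out 1 library gave 1 to 324 in the pancreas, 0 to 1018 in the liver, 0 to 7 in the lungs, 329 to 2251 on average, and 0 to 1, 0 to 4 and 0 to 289 for the 3 differences. The blocked values beside the results of the report are those in which the block moved a count by over 1.5 times, and it left the average within that. The number of liver-closed peaks was 12903 at a fold of 2 and 2468 at 4, 6507 with TMM factors, and 4630 (without Panc_ON replicate 3) to 8660 (without Liv_ON replicate 1) on leaving out 1 library. Within the central 200 bp, motif shares were 44.7% (AP-1), 10.8% (RUNX), 14.7% (TEAD), 0.150% (ETS), 1.598% (KLF), 4.01% (FOX), 7.31% (SMAD), 1.73% (CEBP), 6.23% (ZEB or SNAI), 12.9% (SOX), 0.133% (CREB), 0.982% (CTCF) and 3.15% (GATA), lower because the window is shorter. Leaving out distal chromosome 6, an alternative added after seeing the data, took 1 call from the average (1244) and none from the other counts. The average over organs involves all groups and so has no fit with only the groups compared. Of 440 refits of the 16 tests of single peaks, 55 lost the call and 0 changed sign. With 2 liver libraries a group, the smallest increase called in the liver was 0.96 on the log2 scale. Other causes of these differences were not tested.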
